A study of Mus musculus with 4 samples.

Results

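Flk1, the product of Kdr, is the receptor that marks the mesodermal precursors of blood vessels, blood and heart, and it was followed here together with 8 other genes of the endothelial lineage through 4 mouse cell populations. The members were fixed by 9 RefSeq transcript identifiers, for Kdr (NM_010612), Flt1 (NM_010228), Flt4 (NM_008029), Cdh5 (NM_009868), Tek (NM_013690), Tie1 (NM_011587), Etv2 (NM_007959), Cd34 (NM_133654) and Emcn (NM_016885), and 8 of them were found among the 33226 transcript names of the array. The 8 genes had 11 probes, because Kdr, Etv2 and Cd34 were each represented by a second probe. The identifier for Emcn, a sialomucin of the endothelial surface, was not among the probes given here. A probe for another Emcn transcript, looked up after its values were seen, was not well above background on any array.

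The RNA came from cultures of mouse embryonic stem cells that were differentiated without leukemia inhibitory factor, and the populations carry the names of their flow cytometry gates. Flk1+ MPCs, the mesodermal precursor cells, were those of day 4.5. PCBs, the PDGFRα+Flk1- cardioblasts, were obtained at day 5.5 after Flk1+ MPCs had been cultured with CsAYTE, a mixture of Cyclosporin A, Trolox (an antioxidant), Y27632 (which inhibits ROCK) and EW7197 (which inhibits ALK5). sfPCBs, the spontaneously formed cardioblasts of the same day, were obtained without CsAYTE, and DMSO was the control vehicle. M+CMs were the αMHC+ cardiomyocytes of day 10.5, a gate that in the study is green fluorescent protein driven by the cardiac αMHC promoter. The study describes M+CMs as differentiated from PCBs, and their label does not mention CsAYTE. According to the methods, cardioblasts and cardiomyocytes were grown on OP9 stromal feeder cells or on gelatin, and the labels do not say which was used for the arrays. There was 1 array per population and no replicate, so no test between populations could be run, and differences between cultures had no estimate. All errors given are those of the scanner software for the spot and its background.

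Endothelial cells arise from Flk1+ mesoderm under the ETS-family transcription factor Etv2, which acts upstream of Kdr and of the genes of the vessel wall. VEGF ligands act through the receptors encoded by Flt1, Kdr and Flt4, angiopoietins act through Tek (Tie2) with its partner Tie1, and the cells are joined by VE-cadherin, the product of Cdh5. Cd34 encodes a surface sialomucin of endothelial and blood progenitors.

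The 250 bases before the start site of 4 members are shown, because Etv2 and Kdr stand for the genes that were brightest in Flk1+ MPCs and Tie1 and Tek for those that were brightest in sfPCBs. They are RefSeq sequences of build GRCm38.p6, at chr7:30635853-30636102 (minus strand), chr5:75978456-75978705 (minus strand), chr4:118489850-118490099 (minus strand) and chr4:94739039-94739288 (plus strand), and capitals mark GGAA or its reverse complement TTCC, the core that ETS factors bind.
Etv2: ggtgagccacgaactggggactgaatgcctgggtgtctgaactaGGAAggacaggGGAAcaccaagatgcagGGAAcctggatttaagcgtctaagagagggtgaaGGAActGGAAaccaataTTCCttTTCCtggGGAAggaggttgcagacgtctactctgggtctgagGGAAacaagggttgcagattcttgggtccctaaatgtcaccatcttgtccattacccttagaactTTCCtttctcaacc
Kdr: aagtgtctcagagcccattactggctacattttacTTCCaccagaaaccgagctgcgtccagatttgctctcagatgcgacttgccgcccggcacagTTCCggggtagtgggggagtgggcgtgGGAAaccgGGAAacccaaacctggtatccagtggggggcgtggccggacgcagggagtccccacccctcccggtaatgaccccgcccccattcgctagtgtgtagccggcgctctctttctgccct
Tie1: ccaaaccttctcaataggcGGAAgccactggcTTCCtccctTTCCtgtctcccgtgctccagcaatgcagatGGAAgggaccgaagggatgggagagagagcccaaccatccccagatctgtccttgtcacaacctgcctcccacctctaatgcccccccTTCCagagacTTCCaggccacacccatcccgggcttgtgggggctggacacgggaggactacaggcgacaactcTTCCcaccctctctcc
Tek: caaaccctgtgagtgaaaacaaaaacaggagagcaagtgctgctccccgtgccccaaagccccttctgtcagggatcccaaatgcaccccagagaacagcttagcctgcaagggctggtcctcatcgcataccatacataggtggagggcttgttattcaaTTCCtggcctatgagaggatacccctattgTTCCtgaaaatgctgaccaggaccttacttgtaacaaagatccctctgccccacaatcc
On both strands, GGAA occurred 10 times in the Etv2 sequence, 7 times in that of Tie1, 4 times in that of Kdr and 2 times in that of Tek. Of all 32851 promoters of this length, 0.192% held GGAA at least 10 times, 3.82% at least 7 times, 33.4% at least 4 times and 76.8% at least 2 times, so the core itself was common. Promoter sequences were found for 7 of the 8 measured genes, all except Cdh5, and all 7 held GGAA, against 93.4% of all promoters. The longer form AGGAAG, which contains the core, was present in 4 of the 7 (29.5% of all promoters) and CCGGAA, which also contains it, in 1 (12% of all promoters), that of Kdr. The GATA motif AGATAA and the E-boxes CACGTG and CAGCTG were found in 0 of the 7, and 9.99%, 6.02% and 13% of all promoters held them. These matches describe the letters only, and binding was not measured.

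The sorted markers were examined first. The scaled signal of Pdgfra was 7268 in Flk1+ MPCs and 3646 in sfPCBs, against 9164 in PCBs and 911 in M+CMs, where the scaled signal is the array intensity after each array was set to a common 75th percentile. Pdgfra was thus 2.51-fold higher in PCBs compared with sfPCBs, and sfPCBs lay 1.99-fold below Flk1+ MPCs, although both cardioblast populations are named for PDGFRα. Myh6, which encodes αMHC, was at 117 in Flk1+ MPCs and 128 in sfPCBs, against 83109 in PCBs and 474936 in M+CMs. Between 72.9% and 76.0% of the 39428 probes were well above background on each array, and 0 spots were saturated.

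Both probes of Kdr were brightest in Flk1+ MPCs, but they differed in the size of the change. The probe spotted 10 times had a signal of 55101 in Flk1+ MPCs and 4559 in sfPCBs, against 770.2 in PCBs and 2109.8 in M+CMs. Its 10 spots ranged from 51445 to 58687 in Flk1+ MPCs, from 4097 to 5264 in sfPCBs, from 644 to 837 in PCBs and from 2003 to 2193 in M+CMs, so that the spots of different populations did not overlap. On this probe Kdr was 12.1-fold lower in sfPCBs and 71.5-fold lower in PCBs relative to Flk1+ MPCs (log2 ratio -6.16, error 0.20). It was also 5.92-fold lower in PCBs compared with sfPCBs, and 2.74-fold higher in M+CMs relative to PCBs.

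The second Kdr probe, spotted once, gave 11311 in Flk1+ MPCs and 6660.1 in sfPCBs, against 7295 in PCBs and 7441 in M+CMs. On it Kdr was 1.55-fold lower in PCBs compared with Flk1+ MPCs (log2 ratio -0.63, error 0.20), and the other 3 populations lay within 2 errors of each other. Because this probe had the higher mean log2 signal, it is the one that stands for Kdr in the counts of genes, and between the cardioblast populations the count is also given with the probe spotted 10 times. Since Flk1 was the marker of the Flk1+ MPC gate, a lower Kdr signal against Flk1+ MPCs is a description of the sort and was not counted as a result. Flk1 is also part of the cardioblast gate, PDGFRα+Flk1-, so the Kdr differences that involve PCBs or sfPCBs are descriptions too.

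**Figure D1:**
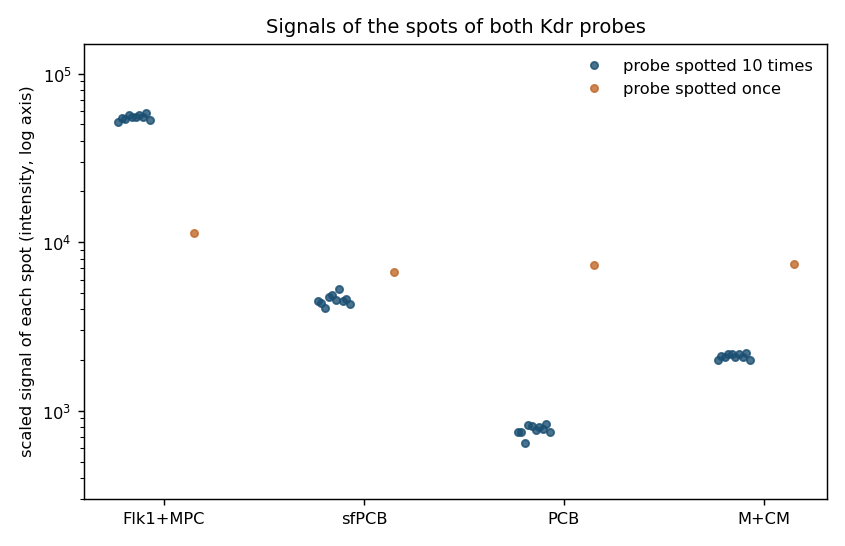
Scaled signal of every spot of the Kdr probes (log axis) on the arrays of the 4 populations, with the probe spotted 10 times in blue and the probe spotted once in orange. The blue spots lie around 55101 in Flk1+ MPCs and 770.2 in PCBs, and the orange spot lies at 11311 and 7295.

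By the fixed measure of likeness, the root mean square difference of the centred log2 signals over the 4 populations, the 6 transcripts closest to the Kdr probe spotted once were Foxk1, Mrpl50, Pdf, Gm4925, Ppp4r2 and Tomm7, with differences from 0.011 to 0.021 among 15089 candidates. Those closest to the probe spotted 10 times, a choice made after its values were seen, were Rftn1, Tcstv3, Lmo1, Zic1, Pcdh8 and Vax1, with differences from 0.43 to 0.68. The first set varied as little over the populations as the probe it was matched to, and the second set was brightest in Flk1+ MPCs and dimmest in PCBs or M+CMs. With 4 populations, this likeness is a description.

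Etv2 was high in Flk1+ MPCs and sfPCBs and low in PCBs and M+CMs. Its brighter probe gave 23165 in Flk1+ MPCs and 11261 in sfPCBs, against 153 in PCBs and 25.8 in M+CMs. Etv2 was 2.06-fold lower in sfPCBs relative to Flk1+ MPCs (log2 ratio -1.04, error 0.20) and 151-fold lower in PCBs (log2 ratio -7.24, error 0.21). In M+CMs, where the signal was close to the lowest that the software called well above background (15.2), it was a further 5.94-fold lower than in PCBs. The second Etv2 probe gave 9418, 3921, 63.0 and 20.1 in the same order of populations, with a 149.6-fold difference between Flk1+ MPCs and PCBs. Both probes thus ordered the populations alike, and their differences from PCBs to Flk1+ MPCs and to sfPCBs (73.6-fold and 62.3-fold) were of similar size.

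Flt1, which encodes a VEGF receptor that also binds the ligand away from Flk1, had a like pattern. Its signal was 4034 in Flk1+ MPCs and 3573 in sfPCBs, against 264 in PCBs and 247 in M+CMs. Flk1+ MPCs and sfPCBs differed 1.13-fold, within 2 errors, as did PCBs and M+CMs (1.07-fold), whereas Flt1 was 15.3-fold lower in PCBs compared with Flk1+ MPCs and 13.5-fold lower than in sfPCBs. Flt4, the receptor of VEGF-C, was dim on all arrays, with signals of 39.0 in Flk1+ MPCs and 44.0 in sfPCBs, against 9.23 in PCBs and 25.4 in M+CMs. The PCB signal was not well above background, so that Flt4 was at least 2.50-fold lower in PCBs relative to Flk1+ MPCs and at least 2.82-fold lower than in sfPCBs. A bound of this kind divides the brighter signal by the lowest signal called well above background on the dimmer array, or by the dim signal itself where that is higher.

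Cdh5, Tek, Tie1 and Cd34 had another pattern, with their highest signal in sfPCBs. Cdh5 gave 36.3 in Flk1+ MPCs and 987 in sfPCBs, but 6.5 in PCBs and 3.28 in M+CMs, neither of the latter well above background. It was 27.2-fold higher in sfPCBs compared with Flk1+ MPCs (log2 ratio 4.76, error 0.25) and at least 63.3-fold higher in sfPCBs relative to PCBs. Tek was at 42.6 in Flk1+ MPCs and 1463 in sfPCBs, against 40.5 in PCBs and 29.2 in M+CMs. Only the sfPCB array stood out for Tek, 34.4-fold above Flk1+ MPCs and 36.1-fold above PCBs, while Flk1+ MPCs and PCBs (1.05-fold), and PCBs and M+CMs (1.39-fold), lay within 2 errors.

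Tie1 was well above background only in sfPCBs, with a signal of 270.1 there against 4.08 in Flk1+ MPCs, 3.97 in PCBs and 9.37 in M+CMs. It was therefore at least 16.9-fold higher in sfPCBs compared with Flk1+ MPCs and at least 17.3-fold higher than in PCBs. Cd34 gave 420.2 in Flk1+ MPCs and 7378 in sfPCBs, against 73.0 in PCBs and 95.1 in M+CMs on its brighter probe. Its highest level was again that of sfPCBs, 17.6-fold above Flk1+ MPCs (log2 ratio 4.13, error 0.20) and 101-fold above PCBs, and Flk1+ MPCs were in turn 5.75-fold above PCBs. The second Cd34 probe gave 27.1, 85.7, 12.4 and 15.7, the last pair not well above background, and a difference between sfPCBs and Flk1+ MPCs of 3.16-fold. On it, Cd34 was at least 5.50-fold higher in sfPCBs relative to PCBs, and Flk1+ MPCs and PCBs lay within 2 errors. Both Cd34 probes placed sfPCBs above Flk1+ MPCs, and the size of the difference was not the same.

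**Figure D2:**
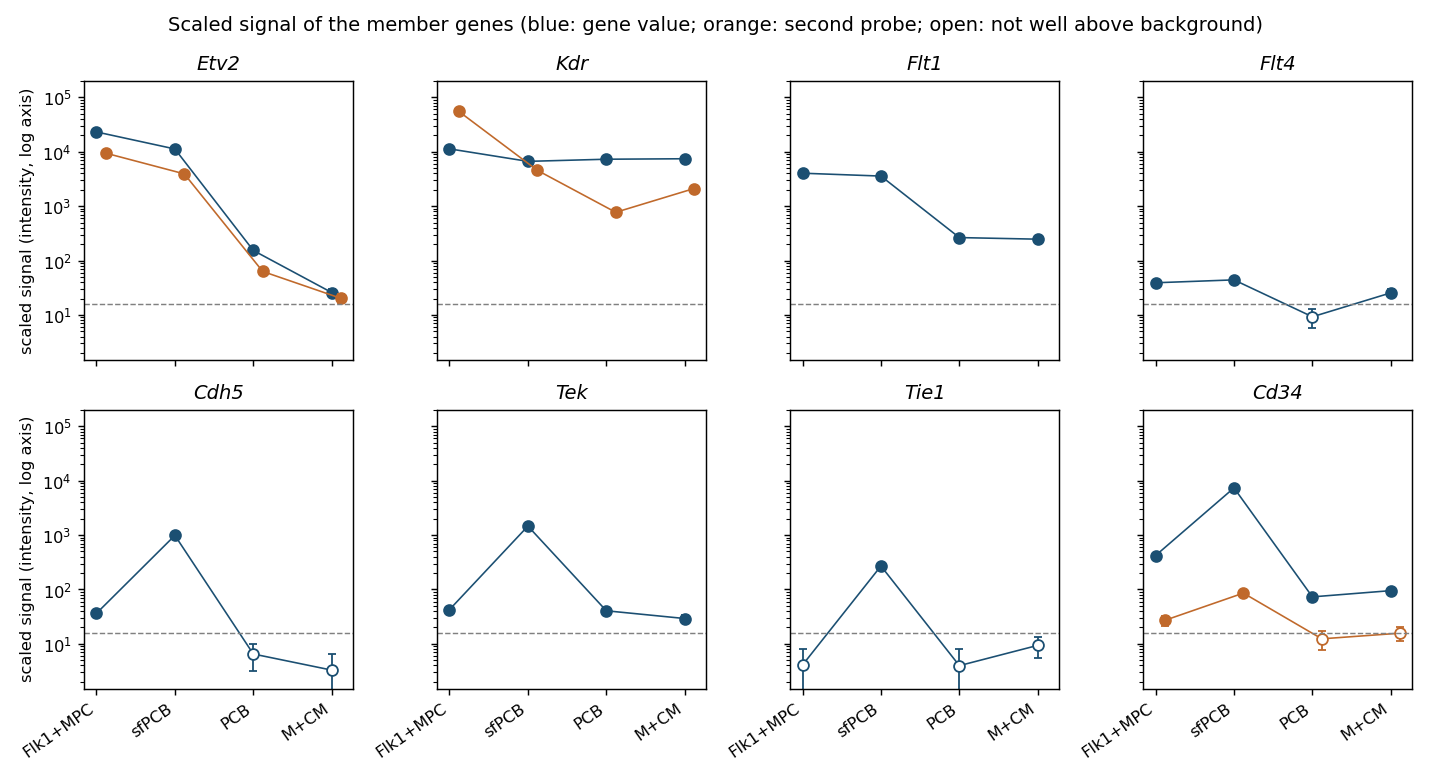
Scaled signal (log axis) of the 8 member genes on the 1 array of each of the 4 populations, with the scanner software's error as bars, open points where the signal was not well above background, and a dashed line at the highest of the detection limits of the arrays (16.0). Blue stands for the probe used as the gene value and orange for a second probe. Etv2, Flt1 and the Kdr probe spotted 10 times are lower in PCBs relative to sfPCBs, and Cdh5, Tek, Tie1 and Cd34 are highest in sfPCBs.

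Counted over the members, 4 of 8 genes (Cdh5, Tek, Tie1 and Cd34) were at least 4-fold higher in sfPCBs compared with Flk1+ MPCs and 0 were lower, when 6.69% of all 25729 transcripts compared were higher by that much and 3.38% lower (10.1% in either direction). A transcript was compared when its signal was well above background on at least 1 of the arrays, and the member median was 2.16 on the log2 scale against -0.23 over all transcripts. Tie1 was compared only because of its sfPCB signal. In PCBs against Flk1+ MPCs, 5 of the 7 genes compared (Flt1, Flt4, Cdh5, Etv2 and Cd34) were at least 4-fold lower and 0 higher, against 3.97% of all transcripts lower and 6.55% higher. Flt4 and Cdh5 were compared only because of their Flk1+ MPC signal and had to be lower. Their PCB signals were not well above background, with bounds of at least 2.50-fold and at least 2.33-fold, so 3 of the 5 had a measured size. Of the 5 genes detected on both arrays, 3 were lower, when 7.05% of such transcripts differed in either direction. Of these 3, Cd34 was at least 4-fold lower on its brighter probe only.

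Between the cardioblast populations, 7 of 8 genes, all except Kdr, were at least 4-fold lower in PCBs relative to sfPCBs, and 0 were higher, when 2.57% of all 25219 transcripts were lower and 2.18% higher (4.75% in either direction). The member median was -5.63 on the log2 scale against 0.03 over all transcripts. Of the 7, Flt4, Cdh5 and Tie1 were compared only because of their sfPCB signal and had to be lower, so the count and the median over the 8 genes are descriptions. The bound for Flt4 was only at least 2.82-fold. That leaves 4 of the 5 genes detected on both arrays, when 2.83% of such transcripts differed in either direction. With the Kdr probe spotted 10 times, all 8 genes were lower, but Kdr is itself a gene of the cardioblast gate. These counts share arrays with each other: the sfPCB array enters both comparisons in which Cdh5, Tek, Tie1 and Cd34 stood out.

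**Figure D3:**
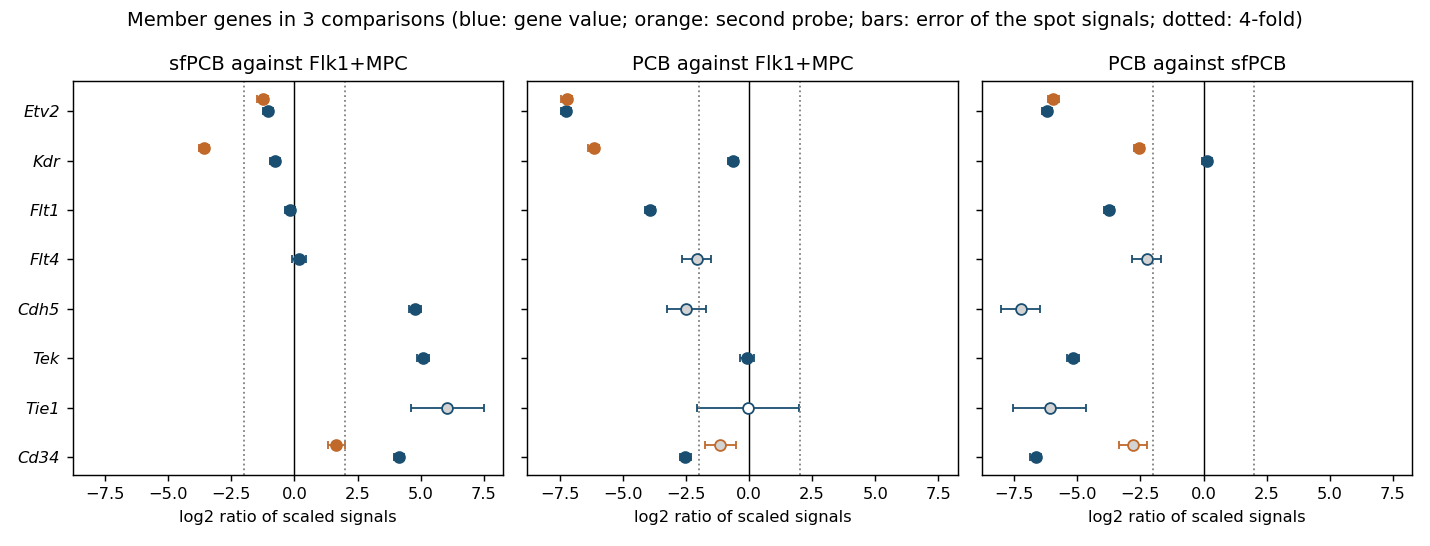
Log2 ratios of scaled signals for each member gene in 3 comparisons, with the error of the spot signals as bars, dotted lines at 4-fold, grey filling where 1 of the arrays was not well above background and white filling where neither was. Cdh5, Tek, Tie1 and Cd34 lie to the right in sfPCBs against Flk1+ MPCs, and 7 of 8 gene values lie below -2 in PCBs against sfPCBs.

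Between M+CMs and PCBs, 5 of the 6 genes compared were within 4-fold. The remaining 1 (Etv2) was at least 4-fold lower in M+CMs compared with PCBs and 0 higher, against 6.88% of all transcripts lower and 7.18% higher, and Cdh5 and Tie1 could not be compared because neither array detected them. On the second Etv2 probe the difference was 3.13-fold, under the 4-fold threshold. Against Flk1+ MPCs, 4 of 7 genes (Flt1, Cdh5, Etv2 and Cd34) were at least 4-fold lower in M+CMs, when 8.5% of all transcripts were (19.2% differed in either direction). Etv2 was 899-fold lower there (469-fold on its second probe) and Flt1 16.3-fold lower. Cdh5 was compared only because of its Flk1+ MPC signal and had to be lower, with a bound of at least 2.39-fold. Of the 6 genes detected on both arrays, 3 were lower, when 15.6% of such transcripts differed in either direction. On the second Cd34 probe M+CMs and Flk1+ MPCs lay within 2 errors. The Kdr probe spotted 10 times was 26.1-fold lower in M+CMs relative to Flk1+ MPCs, which were sorted on Flk1, and is not in the count.

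In a population of sorted cells, fewer cells of a type and less RNA per cell cannot be told apart. The sfPCB array also carried stromal genes. Of 8 stromal and feeder markers, 5 were well above background in Flk1+ MPCs and 8 in sfPCBs, against 7 in PCBs and 8 in M+CMs, and their summed signal was 4282 in Flk1+ MPCs and 132018 in sfPCBs, against 43214 in PCBs and 6775 in M+CMs. Lum, a matrix proteoglycan, was at 8781 in sfPCBs and 30.3 in PCBs, and Postn, a matrix protein of fibroblasts, at 12882 in sfPCBs and 13.2, not well above background, in PCBs. Thy1, also on the list, went the other way, at 1070 in Flk1+ MPCs and 102 in sfPCBs, against 148 in PCBs and 73.6 in M+CMs. Compared with Flk1+ MPCs, 7 of the 8 markers were at least 4-fold higher in sfPCBs and 1, Thy1, lower, beside 6.69% and 3.38% of all transcripts. Of the 7, 4 were detected on both arrays. Lum, Dcn and Postn were compared only because of their sfPCB signal and had to be higher. In PCBs, 4 markers were at least 4-fold higher and 1, again Thy1, lower, beside 6.55% and 3.97% of all transcripts. Dcn, 1 of these 4, was compared only because of its PCB signal. Lum, not detected in Flk1+ MPCs, had a bound of at least 1.89-fold in PCBs and is not among the 4 higher there. The part of these cells in the signals of Cdh5, Tek, Tie1 and Cd34 was not tested. Of 6 cardiomyocyte markers, 6 were at least 4-fold higher in PCBs compared with sfPCBs, beside 2.18% of all transcripts. The summed signal of these 6 markers was 4796 in sfPCBs and 361535 in PCBs.

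The rest of the endothelial programme was read from 4 gene lists. Among 24 genes for endothelial surface, junction and secreted proteins, 23 were compared in sfPCBs against Flk1+ MPCs. Of these, 8 were detected on both arrays and at least 4-fold higher, and 2 were lower. Of all transcripts detected on at least 1 array, 6.69% were higher and 3.38% lower. Of those detected on both arrays, 6.73% differed in either direction. Calcrl, detected in sfPCBs but not in Flk1+ MPCs, had a bound of at least 2.03-fold and is not among the 8. In PCBs against sfPCBs, 13 of 23 were at least 4-fold lower and 0 higher, beside 2.57% and 2.18% of all transcripts, with a median of -2.65 against 0.03. Of the 13, 12 were detected on both arrays, and Robo4 was compared only because of its sfPCB signal. Rasip1, which is needed for the vessel lumen, was at 141 in Flk1+ MPCs and 951 in sfPCBs, against 24.1 in PCBs and 71.2 in M+CMs. Icam2, an endothelial adhesion molecule, had the same peak, with signals of 218, 1339, 39.3 and 31.3 in that order, and so did Plvap, of the endothelial diaphragms, with 653, 2439, 150.3 and 205.9.

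The 2 lower genes were highest in Flk1+ MPCs. Robo4, an endothelial guidance receptor, was at 1062 in Flk1+ MPCs and 168 in sfPCBs, against 8.41, not well above background, in PCBs and 99.7 in M+CMs, the last at least 6.40-fold above PCBs. Aplnr, the apelin receptor, which is also a marker of early mesoderm, gave 5584 in Flk1+ MPCs and 1006 in sfPCBs, against 153 in PCBs and 56.5 in M+CMs. Ramp2, a partner of the adrenomedullin receptor, was at 5676 in Flk1+ MPCs and 7552 in sfPCBs, against 1278 in PCBs and 101 in M+CMs. Pecam1 (CD31) differed little, with 206 in Flk1+ MPCs and 412 in sfPCBs, against 182 in PCBs and 369.7 in M+CMs, or 2.27-fold between sfPCBs and PCBs. It was highest in sfPCBs, as 5 of the members were, but within 4-fold on all arrays.

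Among 20 endothelial and haemangioblast transcription factors, sfPCBs had 4 at least 4-fold above Flk1+ MPCs and 2 below, beside 6.69% and 3.38% of all transcripts. In PCBs against sfPCBs, 8 were at least 4-fold lower and 1 higher, beside 2.57% and 2.18% of all transcripts. Of the 8, 5 were detected on both arrays, and Sox7, Sox17 and Sox18 were compared only because of their sfPCB signal and had to be lower. Sox7 and Sox18, SoxF factors of the endothelium, were at 413 and 281 in sfPCBs and not well above background in PCBs, at least 26.5-fold and at least 18.0-fold lower. Fli1, an ETS factor of endothelium and blood, was at 147 in Flk1+ MPCs and 1879 in sfPCBs, against 72.1 in PCBs and 3.32, not well above background, in M+CMs. Tal1, which directs blood formation, gave 615 in Flk1+ MPCs and 480.2 in sfPCBs, against 56.4 in PCBs and 40.4 in M+CMs. Like Etv2 and Flt1, it was lower in PCBs and M+CMs than in Flk1+ MPCs and sfPCBs. For Tal1, Flk1+ MPCs and sfPCBs lay within 2 errors of each other, as did PCBs and M+CMs. Gata2 varied less, with 758 in Flk1+ MPCs and 642 in sfPCBs, against 435 in PCBs and 189 in M+CMs.

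The gene that was higher in PCBs was Mef2c, a factor of both heart and vessels, with signals of 19.8 in Flk1+ MPCs and 201 in sfPCBs, against 1621 in PCBs and 723 in M+CMs. Foxc2 was brightest in the cardioblasts, at 2756 in sfPCBs and 2273 in PCBs, and 60.8-fold lower in M+CMs compared with PCBs. Tead4 was highest in Flk1+ MPCs (1634) and lowest in M+CMs (28.9), with 303 in sfPCBs and 76.0 in PCBs.

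Of 15 VEGF and angiopoietin ligands and co-receptors, sfPCBs had 2 at least 4-fold above Flk1+ MPCs and 0 below, where 6.69% and 3.38% of all transcripts were, so the count itself is no result about the list. Both are ligands of Tek. Angpt1, the activating ligand, was not well above background in Flk1+ MPCs (4.21) and reached 3745 in sfPCBs and 2545 in PCBs, with 1020.1 in M+CMs, at least 234-fold and at least 159-fold higher in sfPCBs and PCBs than in Flk1+ MPCs. Angpt2, which competes with it in many settings, was at 124 in Flk1+ MPCs and 2603 in sfPCBs, against 661 in PCBs and 485 in M+CMs. Angpt1 was thus high in both cardioblast populations, whereas its receptor Tek was high in sfPCBs alone among the 4 arrays.

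In PCBs against sfPCBs, 3 of the 15 were at least 4-fold lower and 0 higher, beside 2.57% and 2.18% of all transcripts, and Ptprb was compared only because of its sfPCB signal. Ptprb, the phosphatase that acts on Tek and VE-cadherin, was at 1494 in Flk1+ MPCs, 555 in sfPCBs, 16.0, not well above background, in PCBs and 38.1 in M+CMs. Vegfc, the ligand of Flt4, was at 8773 in Flk1+ MPCs and 17306 in sfPCBs, against 1654 in PCBs and 9301 in M+CMs. Vegfa, the ligand of Flk1 and Flt1, was within 2-fold on the first 3 arrays (7246, 12190 and 6285) and 7.73-fold higher in M+CMs compared with PCBs, at 48588. Nrp2, a co-receptor, was 13.4-fold lower in M+CMs relative to PCBs.

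Among 16 arterial, venous and lymphatic genes most were within 4-fold between the cardioblast populations. In PCBs against sfPCBs, 1 gene detected on both arrays, Hey1, was at least 4-fold lower and 1 higher. Of all transcripts detected on at least 1 array, 2.57% were lower and 2.18% higher, and of those detected on both, 2.83% differed in either direction. In sfPCBs against Flk1+ MPCs, 2 genes detected on both arrays, Nr2f2 and Pdpn, were at least 4-fold higher and 0 lower. Of all transcripts detected on at least 1 array, 6.69% were higher, and of those detected on both, 6.73% differed in either direction. Hey1, a Notch target of arteries and heart, was at 11012 in Flk1+ MPCs and 7426 in sfPCBs, against 1319 in PCBs and 2184 in M+CMs. Pdpn, a lymphatic glycoprotein also made by mesothelial and stromal cells, was at 227 in Flk1+ MPCs and 3713 in sfPCBs, against 1373 in PCBs and 589.7 in M+CMs, and so was also 6.06-fold above Flk1+ MPCs in PCBs. Lyve1, a lymphatic hyaluronan receptor, was well above background only in sfPCBs, at 31.0, a bound of at least 1.99-fold against PCBs and of at least 1.94-fold against Flk1+ MPCs, so that it was counted in neither comparison.

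A last group had its peak in M+CMs instead. Nr2f2, a factor of veins and atria, was lowest in Flk1+ MPCs (43.5) and highest in M+CMs (5669). Its signals in sfPCBs (595) and PCBs (759) lay between these and within 2 errors of each other. Prox1, a factor of lymphatics and heart muscle, was at 14.1, not well above background, in Flk1+ MPCs and at 454 in M+CMs. Gja5, a connexin of arteries and atria, was at 463 in M+CMs and at least 25.9-fold lower in PCBs. Of the 16 genes, 4 were highest in M+CMs, 8 in sfPCBs, 3 in Flk1+ MPCs and 1 in PCBs.

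**Figure D4:**
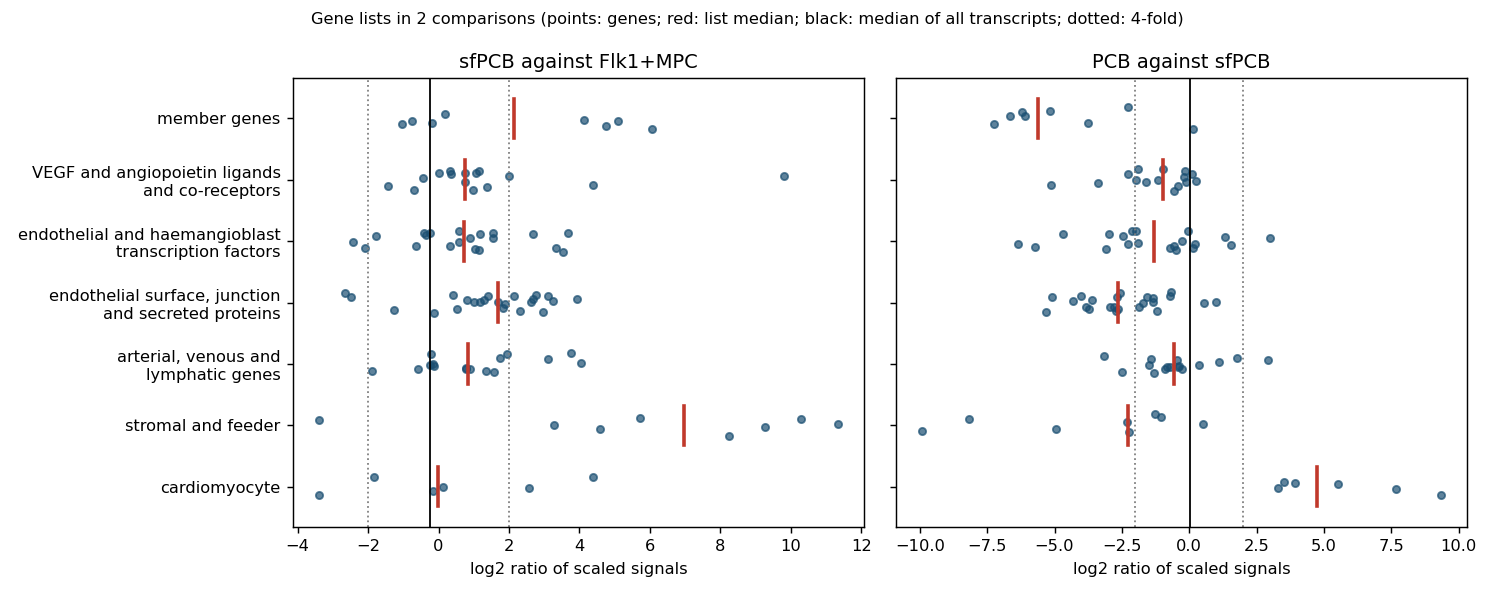
Log2 ratios of scaled signals for the member genes, 4 endothelial gene lists and 2 marker lists, in sfPCBs against Flk1+ MPCs and in PCBs against sfPCBs, with 1 point per gene, list medians in red, the median of all transcripts in black and dotted lines at 4-fold. In PCBs against sfPCBs the member median is -5.63 and that of the surface and junction list -2.65, and the cardiomyocyte markers all lie above 2.

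Of the 8 members, 5 were highest in sfPCBs and 3 in Flk1+ MPCs, and 0 in PCBs or M+CMs, while over 27234 transcripts the shares were 15.1% for sfPCBs, 36.7% for Flk1+ MPCs, 10.2% for PCBs and 38.1% for M+CMs. Flt4 was among the 5, although its sfPCB and Flk1+ MPC signals differed only 1.13-fold and lay within 2 errors. Tie1, also among the 5, was well above background only in sfPCBs and had to be highest there. Kdr, among the 3, was the marker of the Flk1+ MPC gate, so this tally is a description.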

How the data were processed

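RNA of 4 populations was hybridized to 1-colour Agilent mouse arrays, 1 array per population, all on 1 slide. The deposited intensities are the processed signals that the authors obtained with the scanner software Feature Extraction (11.5.1.1, annotation on mm9), which had subtracted the background and estimated an error that was never under 10% of the signal. The deposited value table holds log2 of the same processed signal without scaling (medians from 6.88 to 7.40). Control spots and flagged spots (87 to 144 per array) were left out, the log2 signals of repeated spots were averaged, and the arrays were brought to a common 75th percentile of 2063, the average over the 4 arrays, with factors from 0.867 to 1.11. A probe was detected when at least 0.5 of its spots were well above background, and the brightest probe on average stood for a gene. Symbols were assigned through RefSeq accessions for 27507 of the probes. Without replicates no test was run, and fold differences of at least 4 were counted. All members were named, and from each list up to 6 genes with the largest ratio in any of the 5 comparisons, with Pecam1, Pdgfra, Tal1 and Gata2 in addition. The members and lists were chosen with earlier results of these data known. The counting was tested on simulated data. The alternatives were no scaling, quantile normalization, a percentile over probes detected on all arrays, normexp on the median signals with an offset of 50, an offset of 50, the mean of probes, detection in both arrays, a fold of 2 and the value table. Python 3.11.15 with numpy 2.4.6, pandas 2.3.3 and matplotlib 3.10.9, and R 4.3.3 with limma 3.58.1, were used.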

Additional observations from a re-analysis of the deposited data

How the results depend on the processing

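With detection in both arrays, the count of member genes at least 4-fold different was 3 (in place of 5) for PCBs against Flk1+ MPCs, and 4 (in place of 7) between both cardioblast populations, because fewer genes were compared. With normexp or with an offset of 50 on the scaled signals, both of which raise dim signals by construction, it was 2 for PCBs against Flk1+ MPCs, 0 for M+CMs against PCBs and 2 for M+CMs against Flk1+ MPCs, in place of 5, 1 and 4. With a fold of 2 it was 2 for M+CMs against PCBs. All other counts stayed within 1.5 times under the alternatives tried, the Kdr probe spotted 10 times included, an alternative chosen after seeing the data in which the comparisons with Flk1+ MPCs gain only the sorted gene. Of 257 log2 ratios of members recomputed under the alternatives, 82 moved by more than their error and 0 that were at least 4-fold changed direction. Among smaller ratios, signs did change. That of Kdr in PCBs against sfPCBs went from 0.13 to -2.57 on the probe spotted 10 times and to -1.22 with the mean of probes. That of Flt1 in sfPCBs against Flk1+ MPCs went from -0.18 to 0.17 without scaling. Without scaling, the median over all transcripts moved by 0.34 in sfPCBs against Flk1+ MPCs and by -0.20 in M+CMs against PCBs on the log2 scale, and the member ratios moved with it. No paired analysis was possible because each population had 1 array, and for the same reason no replicate could be left out. Signals under about 16.0 were not well above background, which limits the folds of Cdh5, Tie1 and Flt4 to bounds.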

Other observations

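Blood genes, which share the Flk1+ mesodermal origin with endothelium, were also measured. Of 7 blood markers, 5 were well above background in Flk1+ MPCs and 6 in sfPCBs, against 6 in PCBs and 4 in M+CMs, and in sfPCBs against Flk1+ MPCs 3 of the 6 compared were at least 4-fold higher and 0 lower, beside 6.69% and 3.38% of all transcripts. Of the 3, 2 (Gata1 and Hbb-bh1) were detected on both arrays. Hba-x was compared only because of its sfPCB signal and had to be higher. Hbb-bh1, an embryonic globin, was at 183 in Flk1+ MPCs and 2780.4 in sfPCBs, against 2533 in PCBs and 89.2 in M+CMs. Gata1, the erythroid factor, was at 48.3, 206, 53.7 and 10.5 in the same order, the last not well above background. Runx1, needed for blood stem cells, was at 1418, 1709 and 231 in Flk1+ MPCs, sfPCBs and PCBs and at 94.9 in M+CMs. Hbb-bh1 was thus bright in both cardioblast populations, whereas Runx1, like Etv2 and Flt1, was lower in PCBs compared with sfPCBs. Of 4 early mesoderm genes (T, Mesp1, Mixl1 and Eomes), 4 were at least 4-fold lower in sfPCBs relative to Flk1+ MPCs, beside 3.38% of all transcripts. Only Eomes among them was well above background in PCBs and in M+CMs. The summed signal of the 4 genes was 95056 in Flk1+ MPCs and 4847 in sfPCBs, against 51.6 in PCBs and 55.9 in M+CMs. Etv2, in contrast, still had 11261 of its 23165 in sfPCBs.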
